A study of Mus musculus with 6 samples.

Results

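The genes described here move vitamin C (ascorbate) across membranes, reduce its oxidised form, make it or use it to carry electrons. The list held 10 genes of 19938 tested, chosen by name from the sodium-dependent transporter family (Slc23a1, Slc23a2, Slc23a3), the enzymes that reduce dehydroascorbate (Gsto1, Gsto2, Glrx), the enzymes of synthesis (Gulo, Rgn, Akr1a1) and the vesicle cytochrome Cyb561. Each of the 10 was read from 1 probe set that carries its symbol alone, so no choice between probe sets was needed. They were compared in mouse embryonic stem (ES) cells grown with or without vitamin C on 6 Affymetrix arrays. The 3 vitamin C arrays held RNA of Oct4-GiP ES cells given L-ascorbic acid 2-phosphate at 200 μg/ml for 72 hours, with fresh supplement every day. The 3 untreated arrays held RNA of Oct4-GiP ES cells kept for the same time without it. Both groups grew on 0.1% gelatin in N2B27 medium with LIF (1000 U/ml), the MEK inhibitor PD0325901 (1 μM) and the GSK3β inhibitor CHIR99021 (3 μM). The labels name 1 cell type and no animal, and the design text describes the replicates as biological triplicates.

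Ascorbate is a reducing agent that keeps the iron of many dioxygenases, the TET enzymes among them, in its active state. Cells take it up through the SLC23 transporters, or take up its oxidised form, dehydroascorbate, through glucose transporters and reduce it inside with glutathione or with NADPH-dependent enzymes. Most mammals make ascorbate from glucose in the liver by way of glucuronate, gulonate and gulonolactone. The form used in cell culture, a phosphate ester, is stable in medium and releases ascorbate when a phosphatase removes the phosphate.

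Values are log2 signals, and a difference is vitamin C minus untreated, given with its moderated standard error (SE). A gene was called when its p-value from limma was under 0.05 after Benjamini-Hochberg adjustment across the 19938 genes. In that test 13.2% of all genes were called (5.75% higher and 7.40% lower with vitamin C, 1147 and 1476 genes). With every array centred on its median the split was 866 higher and 1830 lower. Arrays of one group correlated at 0.995 to 0.996 and arrays of different groups at 0.989 to 0.990 across genes, and none stood apart. All 8 markers of ES cells (Pou5f1, Nanog, Sox2, Zfp42, Esrrb, Klf4, Dppa5a and Tdgf1) lay above the upper quartile of all probe sets on every array.

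Of the 10 genes, 1 was called and it was higher with vitamin C. This was Gsto1, a glutathione transferase of the omega class that reduces dehydroascorbate, 2.51-fold higher. The remaining 9 did not pass, with differences between 0.0078 and 0.22 in size and adjusted p-values of 0.107 to 0.963. No member was called lower by limma, where 1 member (Slc23a2) was lower at an unadjusted p under 0.05. The share called, 1 of 10, is near the 13.2% of all genes. The median difference over the 10 was -0.0078, against 0.012 over all genes, and the median size of the difference was 0.10 against 0.13. The 95% intervals of the 9 that did not pass reached at most 1.28-fold higher and at most 1.32-fold lower. Groups of arrays did not overlap for 2 of the 10 (Gsto1 and Slc23a2), beside 35.0% of all genes (16.8% higher and 18.2% lower). In RNA of whole cultures, a change in the number of cells that use a gene and a change in RNA per cell cannot be told apart.

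**Figure D1:**
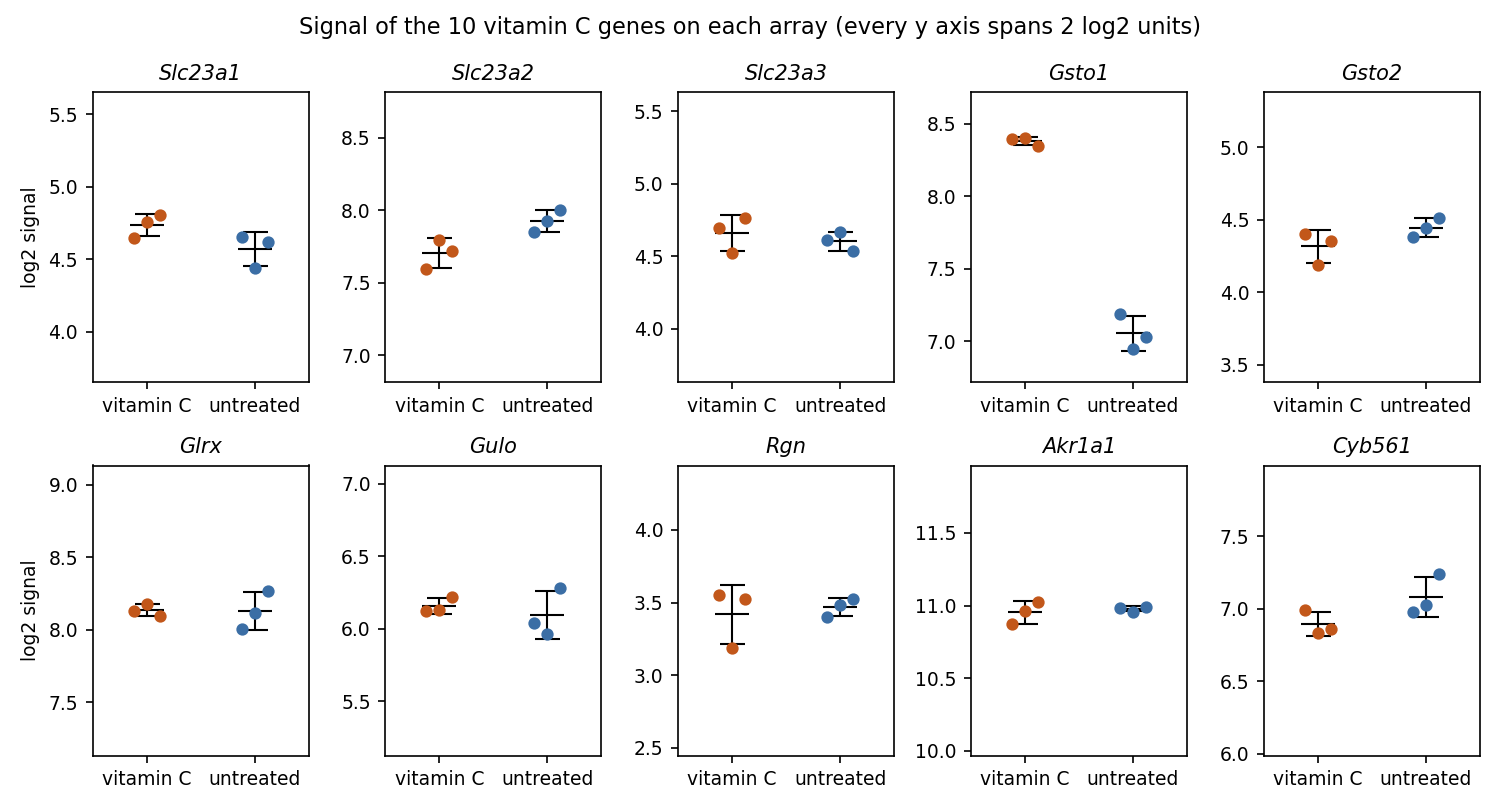
Log2 signal (y axis, 2 log2 units in every panel) of each of the 10 genes on the 3 vitamin C arrays (orange points, left) and the 3 untreated arrays (blue points, right). Black bars show the mean and the SD; Gsto1 separates by more than 1 log2 unit, Slc23a2 separates narrowly, and the groups overlap for the other genes.

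**Figure D2:**
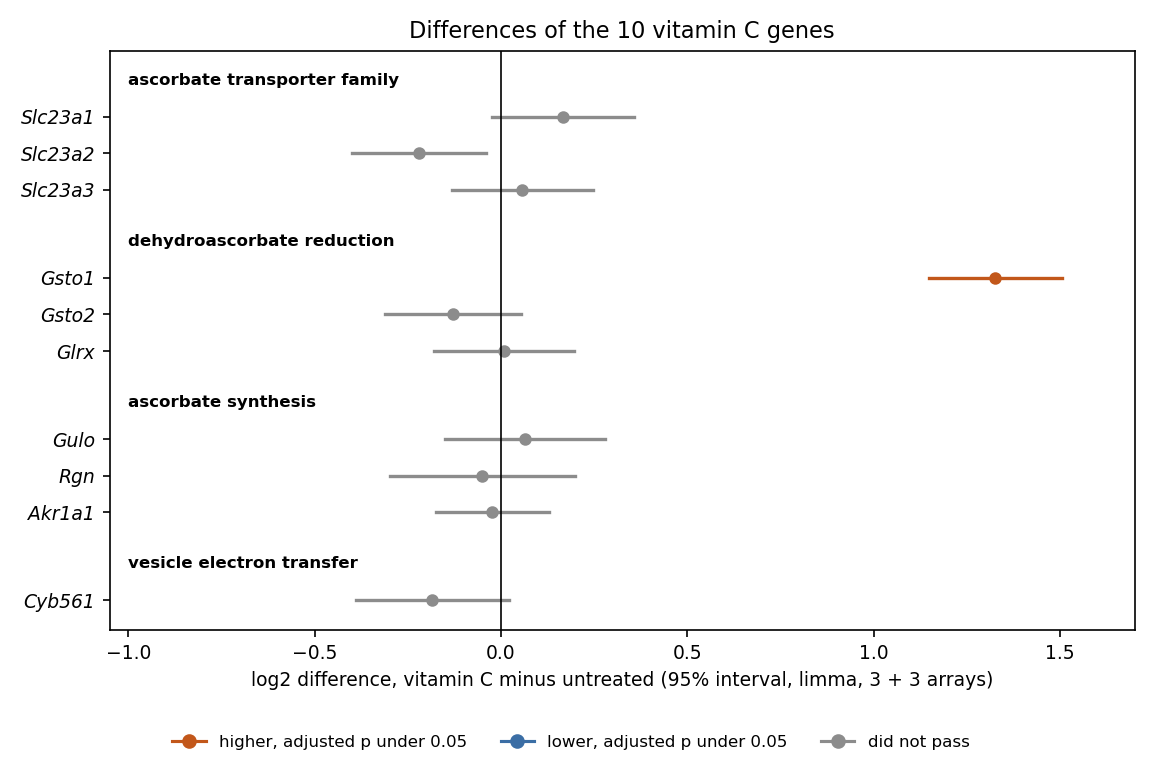
Log2 difference, vitamin C minus untreated (x axis), of the 10 genes grouped by role, with 95% intervals from limma over 3 and 3 arrays. The interval of Gsto1 runs from 1.15 to 1.504, and that of Slc23a2 from -0.40 to -0.04.

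Gsto1 and its paralog Gsto2 are adjacent genes of mouse chromosome 19. The Gsto2 probe set was dim, and the filter on dim genes left it out. The 250 bases upstream of a start site of each are shown because only 1 of this neighbouring pair was called and because the series concerns loss of methylation at CpG sites, which are in capitals. Both come from RefSeq (GRCm38.p6, plus strand), Gsto1 at chr19:47854723-47854972 and Gsto2 at chr19:47865295-47865544. The Gsto1 stretch overlaps the annotated predicted gene Gm30021, and the Gsto2 stretch overlaps the first part of the annotated Gsto2 gene, which also has a later start site.
Gsto1: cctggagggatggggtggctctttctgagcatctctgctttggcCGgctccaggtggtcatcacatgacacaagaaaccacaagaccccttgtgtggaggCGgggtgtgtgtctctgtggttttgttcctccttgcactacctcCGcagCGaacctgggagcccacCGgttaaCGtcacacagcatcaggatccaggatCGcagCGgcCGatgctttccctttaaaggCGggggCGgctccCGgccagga
Gsto2: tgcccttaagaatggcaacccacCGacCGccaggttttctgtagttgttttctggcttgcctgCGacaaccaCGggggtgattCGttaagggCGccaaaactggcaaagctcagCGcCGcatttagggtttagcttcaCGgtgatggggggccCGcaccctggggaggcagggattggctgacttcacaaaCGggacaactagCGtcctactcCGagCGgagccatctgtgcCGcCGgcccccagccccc
The Gsto1 stretch holds 12 CpG sites and the Gsto2 stretch 16, against a median of 6 in 32851 such stretches of the RefSeq table. At least 12 sites were present in 33.5% of these and at least 16 in 25.4%. The stretch before the later Gsto2 start site holds 22, a count that 14.8% reached. Neither stretch held TGACNNNGC, ACGTG or GCGTG on either strand, which occur in 10.2%, 16.6% and 28.2% of all stretches. Methylation was not measured on these arrays. Other members with an entry that was used were Slc23a2, with 13 and 31 CpG sites at 2 start sites, Akr1a1 with 7, Slc23a3 with 4 and Glrx with 1.

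Among the enzymes that reduce dehydroascorbate, Gsto1 had log2 signals of 8.39, 8.40 and 8.35 with vitamin C, against 7.18, 6.95 and 7.03 in untreated cells. The lowest vitamin C array was more than 1 log2 unit above the highest untreated array. The means were 8.38 ± 0.029 with vitamin C and 7.05 ± 0.12 in untreated cells (SD, n = 3 each), a difference of 1.33 ± 0.08 (SE, limma adjusted p = 0.000152, 95% interval 1.15 to 1.504). Among all genes this difference had rank 52 from the largest rise downwards and rank 35 by p-value. Gsto1 was called under all 16 other settings, and its difference stayed between 1.27 and 1.39 (adjusted p = 2.06e-08 to 0.0106).

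Gsto2, the second omega-class enzyme, had log2 signals of 4.40, 4.19 and 4.35 with vitamin C, against 4.38, 4.44 and 4.51 in untreated cells. These groups overlapped, and the difference was -0.13 ± 0.08 (SE, limma adjusted p = 0.321), or -0.066 without vitamin C replicate 2. The responses of both paralogs differed by 1.45 on the log2 scale, with an exact two-sided permutation p of 0.1, the smallest that 3 against 3 arrays can give (adjusted p = 0.1 over 2 such pairs). Gsto2 was dim enough to be left out by the filter on dim genes, and differences of dim probe sets are compressed. Whether Gsto2 lay above background was not tested, so the values do not show that an expressed Gsto2 failed to respond. Cross-hybridisation between the paralogs' probes was not checked, because probe sequences were not used here. Glrx, a glutaredoxin that reduces dehydroascorbate with glutathione, had 8.13, 8.18 and 8.10 with vitamin C, against 8.004, 8.12 and 8.27 in untreated cells. All 3 vitamin C values lay inside the untreated range. Its difference was 0.0078 ± 0.08 (SE, limma adjusted p = 0.963), with an interval from -0.18 to 0.20, and was -0.032 with arrays centred on their median.

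Markers of fibroblasts moved in the same direction as Gsto1 on these arrays. Of 10 such markers 8 rose (Col1a1, Col1a2, Col3a1, Dcn, Lum, Acta2, Tagln and Lox), beside 5.75% of all genes called higher. Postn and Thy1 did not pass, and none was below 0 in difference. The mean log2 level of the list ran from 5.84 to 5.93 with vitamin C, against 5.06 to 5.19 in untreated cells. Some of these signals were dim, and 0 of the 10 lay above the upper quartile of probe sets on every array. Lum and Postn lay below the lower quartile on all 6 arrays, and Lox on the 3 untreated arrays. Of 8 primitive endoderm markers 3 rose (Gata6, Dab2 and Sparc) and 5 did not pass, with a mean level of 6.55 to 6.57 with vitamin C against 6.27 to 6.32 in untreated cells. Of the 8 ES cell markers 2 rose (Nanog and Zfp42) and 6 did not pass, with a mean level of 10.77 to 10.79 with vitamin C against 10.69 to 10.71 in untreated cells. Those 6 went both ways. Pou5f1 (-0.12), Esrrb (-0.05) and Dppa5a (-0.14) differed downwards, and Sox2 (0.13), Klf4 (0.18) and Tdgf1 (0.03) upwards. Whether cells of other types have a part in the rise of Gsto1 was not tested.

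The genes whose profile over the 6 arrays, centred on each gene's own mean, lay closest to that of Gsto1 were Mme, which encodes the membrane peptidase neprilysin, 3830403N18Rik and Abcb1b, which encodes a P-glycoprotein drug exporter. Their root mean square distances from Gsto1 were 0.081, 0.096 and 0.11 log2 units. Mme was higher with vitamin C by 1.23, 3830403N18Rik by 1.33 and Abcb1b by 1.18 on the log2 scale. Because these genes were chosen for closeness to the profile of Gsto1, rises of about its size follow from the choice.

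The transporters did not pass. Slc23a2 encodes SVCT2, the sodium-dependent vitamin C transporter of most tissues. It had log2 signals of 7.60, 7.80 and 7.72 with vitamin C, against 7.85, 7.92 and 7.999 in untreated cells. Every vitamin C array was below every untreated array, by a narrow margin. The means were 7.71 ± 0.10 with vitamin C and 7.92 ± 0.074 in untreated cells (SD, n = 3 each). The difference was -0.22 ± 0.08 (SE), with a 95% interval from -0.40 to -0.04 and a limma adjusted p of 0.107. Among the 16 other settings it passed in 1, the trended and robust spread model (adjusted p = 0.0382), and elsewhere the adjusted p-values reached 0.257.

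Slc23a1 encodes SVCT1, the related transporter of absorbing epithelia such as intestine and kidney. Its log2 signals were 4.65, 4.76 and 4.80 with vitamin C, against 4.65, 4.44 and 4.62 in untreated cells. The groups touched at their edge, and the difference was 0.17 ± 0.08 (SE, limma adjusted p = 0.224, 95% interval -0.02 to 0.36). Without untreated replicate 2 the difference was 0.10. The responses of Slc23a2 and Slc23a1 differed by -0.39 on the log2 scale (exact two-sided permutation p = 0.1, the smallest possible here). Neither gene was called. All values of Slc23a1 and Slc23a3 lay below the array medians (5.52 to 5.60), and whether either lay above background was not tested. Slc23a3, a family member for which ascorbate transport is not established, had 4.69, 4.52 and 4.77 with vitamin C, against 4.61, 4.67 and 4.54 in untreated cells. The arrays of both groups were interleaved, and the difference was 0.06 ± 0.08 (SE, limma adjusted p = 0.696), and with 1 array left out it ran from 0.0049 (without vitamin C replicate 3) to 0.13 (without vitamin C replicate 2).

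The genes of ascorbate synthesis did not pass either. Gulo encodes L-gulonolactone oxidase, the last enzyme of the pathway in mice, which humans lack in working form. It had log2 signals of 6.12, 6.13 and 6.22 with vitamin C, against 6.04, 5.96 and 6.28 in untreated cells. The vitamin C values lay inside the untreated range, and the difference was 0.06 ± 0.09 (SE, limma adjusted p = 0.695, 95% interval -0.15 to 0.28). Rgn encodes regucalcin, a gluconolactonase that forms the lactone before the last step. It had 3.55, 3.18 and 3.52 with vitamin C, against 3.40, 3.48 and 3.52 in untreated cells. All 6 values lay below the lower quartile of their array (3.99 to 4.05), the only member for which this held, so its difference of -0.05 ± 0.11 (SE, limma adjusted p = 0.801) rests on dim values.

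Akr1a1 encodes the aldehyde reductase that turns glucuronate into gulonate and also detoxifies other aldehydes. It had log2 signals of 10.87, 10.96 and 11.03 with vitamin C, against 10.98, 10.96 and 10.99 in untreated cells. The untreated values fell inside the vitamin C range, and the difference was -0.02 ± 0.06 (SE, limma adjusted p = 0.849), with an interval from -0.17 to 0.13. The liver is the main site of this pathway in mice, and 1 of 8 hepatocyte markers (Cps1) rose while 7 did not pass. Over all genes, 5.75% were called higher. The mean log2 level of the 8 was 4.55 to 4.65 with vitamin C and 4.47 to 4.59 in untreated cells, and none of them lay above the upper quartile of probe sets on every array.

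Cyb561 passes electrons across the membrane of secretory vesicles and so restores the ascorbate inside. Its log2 signals were 6.99, 6.83 and 6.86 with vitamin C, against 6.98, 7.02 and 7.24 in untreated cells. The highest vitamin C array was just above the lowest untreated array, and the difference was -0.18 ± 0.09 (SE, limma adjusted p = 0.213, 95% interval -0.39 to 0.02). Without untreated replicate 3 the difference was -0.11.

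**Figure D3:**
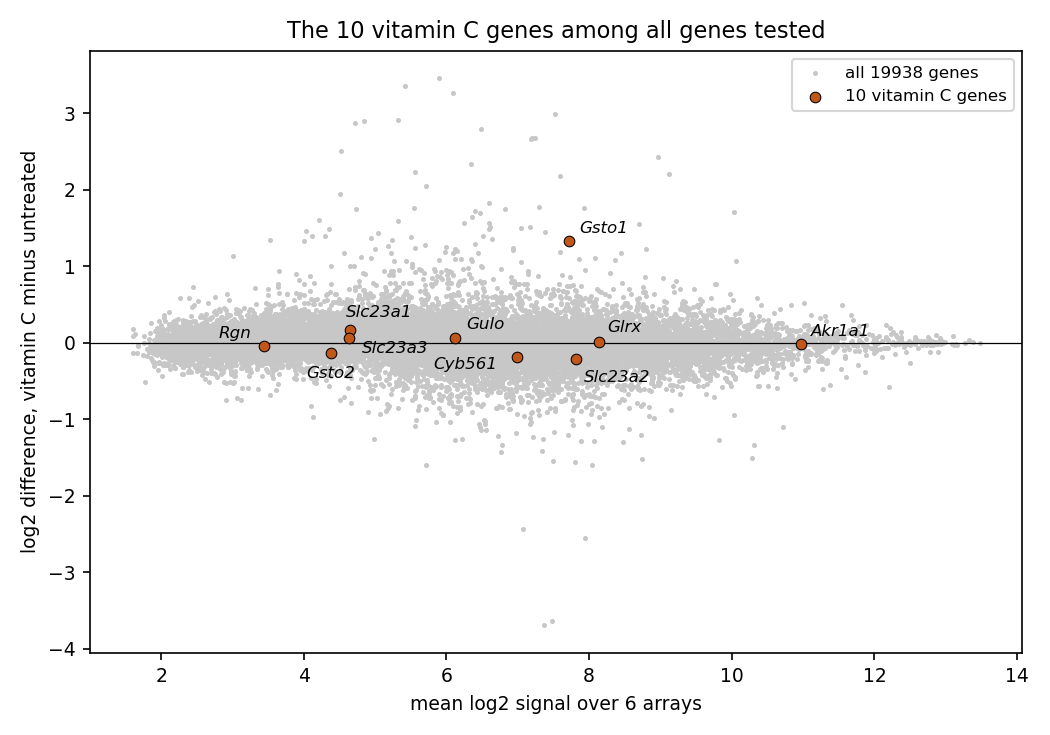
Log2 difference, vitamin C minus untreated (y axis), against mean log2 signal over the 6 arrays (x axis) for the 19938 genes (grey) and the 10 vitamin C genes (orange). Gsto1 lies at 1.33, and the other 9 lie between -0.22 and 0.17, inside the band of most genes.

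A list of 40 further genes around vitamin C was read in the same fit, and 39 of them had a probe set of their own (Akr1b3 did not). Of these 3 were higher, 7 were lower and 29 did not pass, a share of 10 of 39 beside 13.2% of all genes. The 2 shares were not matched for signal level. The lists were chosen with earlier results of these data known, so neither this share nor the counts by list are a test of enrichment. Of the 39, 20 lay above the upper quartile of all probe sets on every array. Without the dimmest genes, calls over all genes rose from 2623 to 3391 although fewer genes were tested. The median difference of the 39 was -0.02, against 0.012 over all genes. Their counts fell to between 1 and 2 higher and between 2 and 3 lower when any 1 array was left out. In those fits the calls over all genes fell too, to between 1483 and 1721, against 2623 with all arrays.

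Carriers of dehydroascorbate held 4 of the 7 falls. Of 6 measured glucose transporter genes 4 fell, beside 7.40% of all genes called lower. None rose and 2 did not pass (Slc2a2 at 0.07 and Slc2a10 at 0.12), with a median difference of -0.33 over the 6. Slc2a10 lay below the lower quartile on 5 of the 6 arrays, and Slc2a2 lay below the array medians (5.52 to 5.60) on all 6. Whether either lay above background was not tested. Of the 4 calls, only that of Slc2a1 held with any 1 array left out. Slc2a1, the GLUT1 gene and a target of hypoxia-inducible factors, had log2 signals of 10.26, 10.34 and 10.42 with vitamin C, against 10.94, 10.90 and 10.95 in untreated cells. The groups were far apart, and the difference was -0.59 ± 0.07 (SE, limma adjusted p = 0.00214), which passed under all 16 other settings. Slc2a3, the GLUT3 gene, had 11.18, 11.20 and 11.23 with vitamin C, against 11.48, 11.47 and 11.46 in untreated cells. Its replicates lay close together and its groups did not overlap, with a difference of -0.26 ± 0.06 (SE, limma adjusted p = 0.0233), and the call was lost without any 1 of the 6 arrays (adjusted p = 0.0550 to 0.0715). Slc2a4, the insulin-responsive GLUT4 gene, fell by 0.41 (limma adjusted p = 0.0231), a call lost without any array other than untreated replicate 1 (adjusted p of up to 0.0741). Slc2a8, the GLUT8 gene of internal membranes, fell by 0.39 (limma adjusted p = 0.0217). Leaving out replicate 1 or 3 of either group ended its call (adjusted p = 0.0522 to 0.0718).

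Among 4 alkaline phosphatases, enzymes that can free ascorbate from its phosphate ester, 1 fell, none rose and 3 did not pass. For comparison, 7.40% of all genes were called lower. Alpl, the tissue-nonspecific enzyme for which ES cell colonies are commonly stained, had log2 signals of 9.60, 9.77 and 9.76 with vitamin C, against 10.03, 10.09 and 10.09 in untreated cells. The groups did not overlap, and the difference was -0.36 ± 0.07 (SE, limma adjusted p = 0.0158), or 1.29-fold lower. The call was lost without untreated replicate 2 (adjusted p = 0.0542) or 3 (0.0547).

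Among 11 other enzymes and proteins that reduce ascorbate's oxidised forms, or belong to families that do, 2 fell, none rose and 9 did not pass. Over all genes, 7.40% were called lower. Txn2, mitochondrial thioredoxin, fell by 0.26 (limma adjusted p = 0.0263), and its call was lost without any 1 array (adjusted p = 0.0529 to 0.0832). Cyb5r3, a cytochrome b5 reductase that serves the reduction of the ascorbate radical, fell by 0.30 (limma adjusted p = 0.0263), and its call was lost without any array other than untreated replicate 3 (adjusted p = 0.0543 to 0.0833). None of 4 genes of glutathione supply (Gclc, Gclm, Gss and Gsr) passed in limma, with differences from -0.14 to 0.22, where 1 was higher at an unadjusted p under 0.05. None of 5 further cytochrome b561 family genes passed in limma, with differences from -0.40 to 0.25, where 1 was lower at an unadjusted p under 0.05.

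Among 3 copper monooxygenase genes, of the enzyme family that uses ascorbate in vesicles, 2 rose and 1 (Dbh) did not pass. Over all genes, 5.75% were called higher. Moxd1, a relative of dopamine beta-hydroxylase, had log2 signals of 5.23, 4.98 and 5.32 with vitamin C, against 4.54, 4.64 and 4.41 in untreated cells. The groups did not overlap, and the difference was 0.65 ± 0.10 (SE, limma adjusted p = 0.00853), although the call was lost without moderation (adjusted p = 0.0607). All Moxd1 values lay below the array medians (5.52 to 5.60), and whether it lay above background was not tested. Pam, which amidates peptides, had 5.98, 6.30 and 5.84 with vitamin C, against 5.46, 4.997 and 5.60 in untreated cells. Its replicates were more scattered, with a difference of 0.69 ± 0.18 (SE, limma adjusted p = 0.0429), and the call was lost without any array other than untreated replicate 3 (adjusted p = 0.0583 to 0.107). Beside these rises, 8 of 10 fibroblast markers rose too, and their part in the rises was not tested. Among 6 measured genes of glucuronate supply and use, 1 rose, beside 5.75% of all genes called higher, and 5 did not pass. Ugp2, which makes the UDP-glucose from which glucuronate derives, rose by 0.31 (limma adjusted p = 0.0207), a call that ended when replicate 2 or 3 of either group was left out (adjusted p = 0.0579 to 0.0683).

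**Figure D4:**
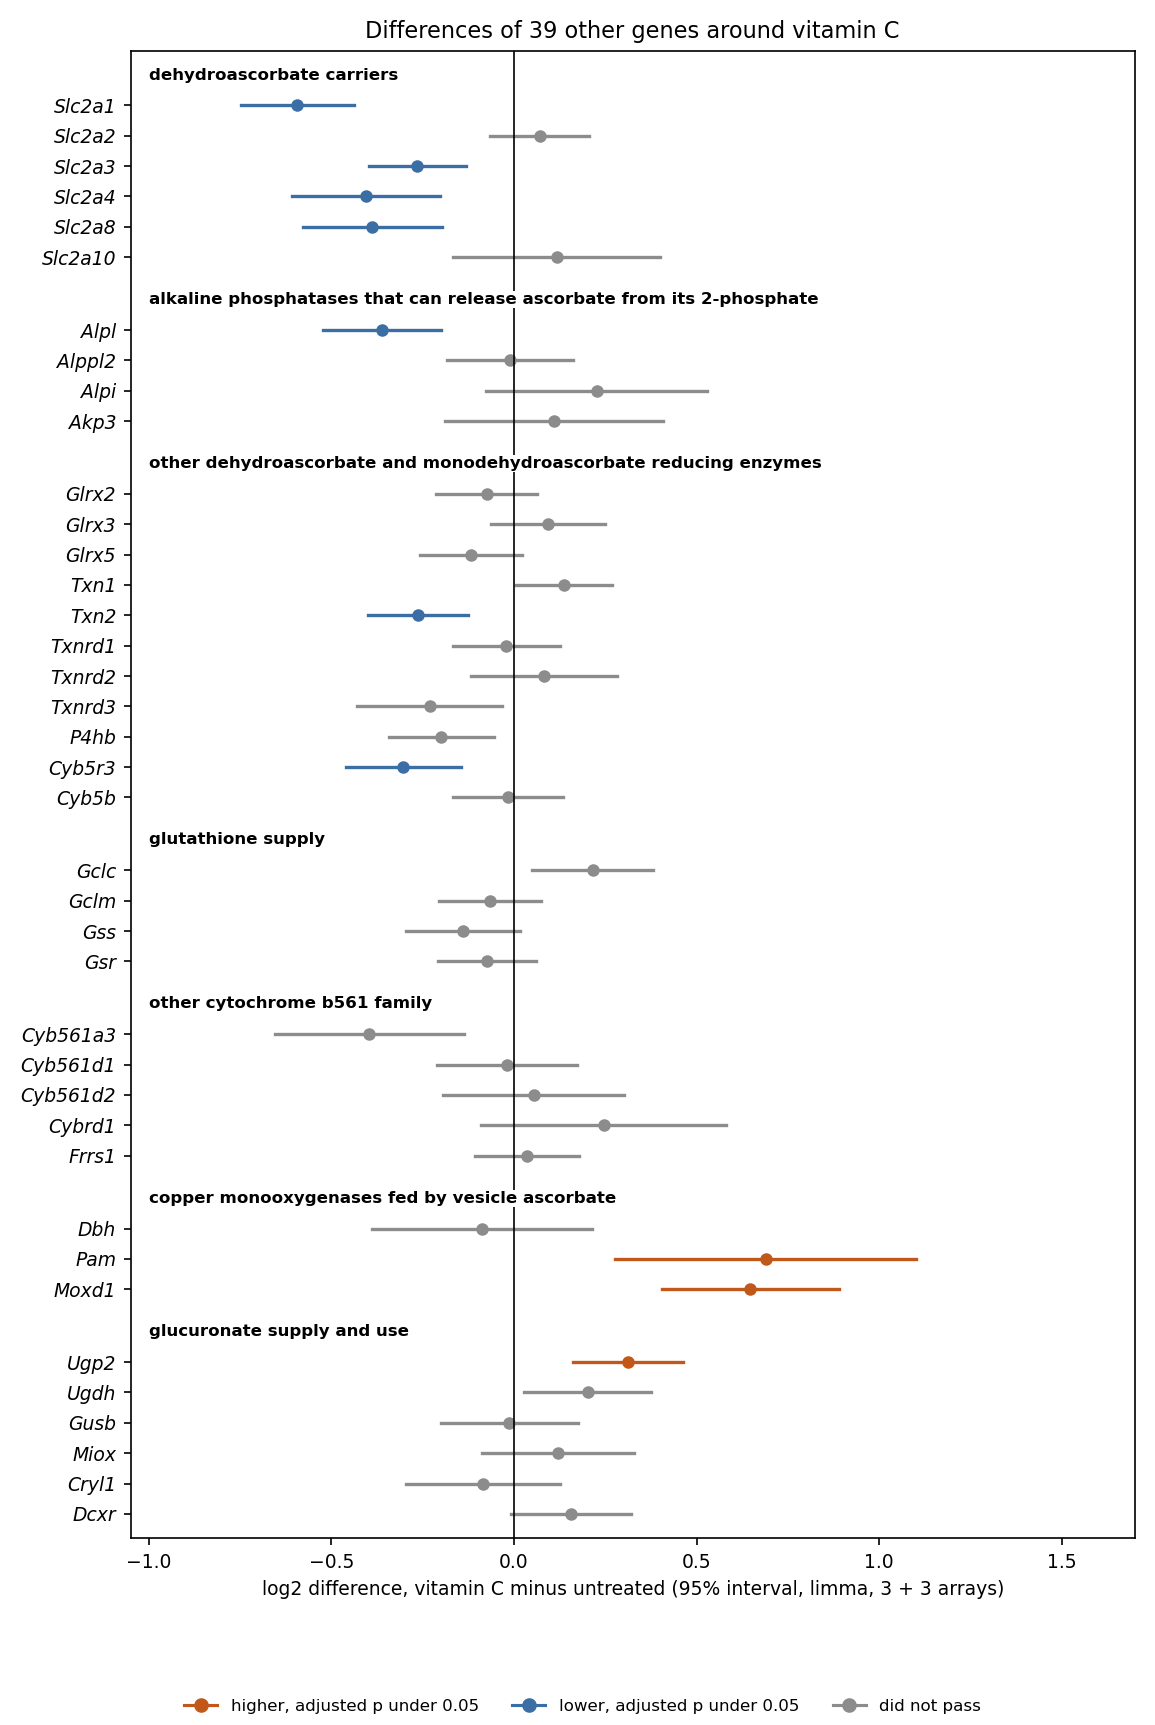
Log2 difference, vitamin C minus untreated (x axis), of 39 other genes around vitamin C by list, with 95% intervals from limma over 3 and 3 arrays. Of the 10 called genes, 7 are lower (blue), 4 of them glucose transporters, and 3 are higher (orange).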

How the data were processed

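Levels of RNA were measured on 6 Affymetrix arrays, 3 of vitamin C and 3 of untreated mouse ES cells, grouped by their titles. The deposited log2 signals were made by the authors with RMA, per the submitters' processing notes. Their log2 scale was inferred from the range of the values, while a software version and a genome build are not given in the sources. Quantile normalization, a step of RMA, hides a change shared by all genes, and differences of dim probe sets are compressed. The number of arrays limits the precision. Array medians lay between 5.52 and 5.60. Signals of different probe sets are not comparable as levels.

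Of 35557 probe sets, 21789 had 1 gene symbol, 1621 had several and were left out, and 12147 are unnamed here. For each of 19938 genes the probe set with the highest mean was used. Of the symbols, 21698 matched the mouse gene table by gene ID and 0 changed. Groups were compared in R 4.3.3 by lmFit and eBayes of limma 3.58.1, without pairing and with Benjamini-Hochberg adjustment over all genes and a threshold of 0.05. The fit was tested on simulated data. The members and lists were chosen with earlier results of these data known. Named were every member, up to 4 called genes of each list with the smallest p, Slc2a1, Slc2a3, Alpl and the 3 profiles nearest to each called member. Other names were chosen after their values were seen. Upstream sequences came from RefSeq tables (GRCm38.p6), where 6 of the 10 members had an entry that was used. Entries on 1 chromosome were skipped for the members, so this is not a count of all matches. Alternatives covered the spread model, normalization, dim genes, probe sets, array weights, threshold, replicate block and each array left out. Figures were drawn with matplotlib 3.10.9.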

Additional observations from a re-analysis of the deposited data

How the results depend on the processing

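Across 16 other settings Gsto1 stayed the 1 member called higher. The count of members called lower was 0 in 15 settings and 1 with a trended and robust spread model. Among the 39 pathway genes 3 were higher and 7 lower, beside 2623 calls over all genes. They were 7 higher and 9 lower with the trended and robust model (4151 over all genes), 4 lower without moderation (1545), 4 lower with all probe sets tested (1470), and 1 higher and 1 lower at an adjusted p under 0.01 (901). The lower count was 9 without the dimmest genes (3391 over all genes) and 8 with arrays centred on their median (2696). With 1 array left out it ran from 2 to 3, and the higher count from 1 to 2 (1483 to 1721 over all genes). Under the replicate block the counts were 1 higher and 2 lower (1723 over all genes). Replicate numbers are shared by both groups, and deviations of same-numbered arrays correlated at 0.052, 0.0096 and -0.024. With 3 arrays per group, these values cannot tell whether same-numbered arrays were handled together. Signs turned only for members near 0. Glrx was -0.032 with arrays centred on their median. With 1 array left out Glrx ran from -0.055 to 0.076, Gulo from -0.00084 to 0.16, Rgn from -0.12 to 0.068 and Akr1a1 from -0.060 to 0.017. The cause was not tested. The filter on dim genes left out Gsto2 and Rgn. No detection calls were used, so whether dim members lay above background was not tested.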
